A study of Mus musculus with 8 samples.

Results

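The synaptic vesicle release machinery is described here by 39 genes, chosen by symbol, whose proteins fill, dock, prime, fuse and recover synaptic vesicles. All 39 were among the 17983 gene symbols of the deposited count table, and all 39 were among the 14895 genes that passed the filter on low counts. The 4 ketogenic libraries came from brains of male db/db mice fed a ketogenic diet, in which fat takes the place of most carbohydrate, and the 4 control libraries from male db/db mice on a normal diet. Both groups carry the db/db genotype, a leptin receptor mutation that makes mice obese and diabetic, so neither group is a non-diabetic brain. Feeding started at 9 weeks of age and whole brains were taken at 6 months. The labels give 1 animal strain, 1 sex and 1 tissue, and they do not say whether each library came from a separate mouse, so p-values measure the spread between these libraries only. The question asked of these genes is whether their messenger RNA differed between ketogenic and control brains.

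Total counts were between 38163795 and 40233361 in ketogenic and between 34450860 and 38738800 in control libraries. On the first principal component of log2 CPM (the count scaled to the size of its library), which held 22.9% of the variance, ketogenic replicate 3 lay at -34.4, the other ketogenic libraries between -11.2 and -2.90, and the control libraries between 5.94 and 22.7. Ketogenic replicate 3 therefore stood apart from its own group. Without it the sign of the log2 fold change turned for 7 of the 39 genes, none past the threshold: Slc17a6, Slc17a7, Stx1a, Cplx2, Syt5, Unc13a and Dnm1.

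Neurons store transmitter in small vesicles at the presynaptic terminal. A vesicle is loaded by a transporter, held in a reserve cluster by synapsins, tethered at the active zone by scaffold proteins that bind Rab3, and fused when calcium binds synaptotagmin and the SNARE proteins of vesicle and plasma membrane zip together. The SNARE complex is then taken apart by NSF and its SNAP adaptors, and the vesicle membrane is retrieved by endocytosis through clathrin adaptors and dynamin. In the brain these proteins are made mostly by neurons, and many have near relatives that are used in different brain regions.

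Of the 39 genes, Syn1 and Sncb passed the test between the diets, and their promoters are shown here because both were lower in ketogenic libraries. Syn1, on the minus strand of chromosome X at chrX:20860511-20921004 (GRCm38), encodes synapsin I, the phosphoprotein that clusters vesicles. Sncb, on the minus strand of chromosome 13 at chr13:54758860-54766595 (GRCm38), encodes beta-synuclein, a small presynaptic protein related to alpha-synuclein. The sequences are RefSeq's for GRCm38.p6, from 250 bases before to 50 bases after the start of the RefSeq gene, written 5′ to 3′ along the gene, at chrX:20920869-20921168 and chr13:54766546-54766845. Capitals mark an RE1 core (TTCAGCACC, a piece of the element bound by the repressor REST) and a cAMP response element (CRE, TGACGTCA) in Syn1, and a short CRE (TGACG, here on the opposite strand) and GC boxes (GGGCGG, on either strand) in Sncb.
Syn1: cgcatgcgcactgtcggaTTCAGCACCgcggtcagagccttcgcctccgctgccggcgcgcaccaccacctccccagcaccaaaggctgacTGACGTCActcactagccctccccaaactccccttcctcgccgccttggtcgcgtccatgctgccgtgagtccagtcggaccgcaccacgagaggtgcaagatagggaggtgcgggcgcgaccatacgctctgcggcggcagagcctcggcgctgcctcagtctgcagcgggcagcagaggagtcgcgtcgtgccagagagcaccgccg
Sncb: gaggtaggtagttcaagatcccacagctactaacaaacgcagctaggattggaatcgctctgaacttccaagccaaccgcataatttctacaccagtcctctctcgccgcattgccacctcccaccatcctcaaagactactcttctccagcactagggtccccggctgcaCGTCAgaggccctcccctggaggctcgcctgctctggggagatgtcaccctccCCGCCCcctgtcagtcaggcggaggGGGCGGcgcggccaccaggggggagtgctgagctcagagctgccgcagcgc
For Sncb the RefSeq start is also the GENCODE start, but for Syn1 it is base 20920918, which lies 86 bases inside the GENCODE gene given above. In Syn1 the RE1 core began 232 bases and the CRE 159 bases before the RefSeq start. In Sncb the short CRE began 79 bases and the GC boxes 26 and 1 bases before it.

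Promoters in the table matched 32 of the 39 genes, and Rims2, Snap25, Syn3, Syt4, Syt5, Syt7 and Vamp2 were not matched. Both strands were searched for each motif. For every motif the share of all promoters counts each listed promoter singly, while a gene with several listed promoters counted if any held it. The 2 figures are therefore not on the same footing. The RE1 core was in 0.371% of all 32851 promoters of the same length and in 2 of the 32 matched genes, Syn1 and Unc13a. The CRE was in 1.79% of all promoters and in Napa and Syn1. The short CRE, whose letters are also part of the CRE, was in 20.8% of all promoters and in 11 of the 32 genes. The GC box was in 35.7% of all promoters and in 25 of the 32 genes. An Egr site (GCGNGGGCG) was in 5.55% of all promoters and in 5 of the 32 genes (Cplx1, Nsf, Syn2, Synj1 and Unc13a), with none in the windows of Syn1 or Sncb. A match is a description of these letters and not of binding.

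The 39 genes were among the more abundant messages of the brain libraries. Levels between genes are given in FPKM, the authors' count scaled to gene length and library size, averaged over all 8 libraries. By the lengths behind the deposited values, the median of the 39 was 86.2 FPKM, against 5.97 FPKM over all tested genes, and 21 of the 39 lay above the 95th percentile of tested genes. Snap25, the plasma membrane SNARE with a pair of helices in the fusion complex, had the highest deposited level at 1250.4 FPKM. Vamp2, the vesicle SNARE, followed at 793 FPKM and Syp, the vesicle membrane protein synaptophysin, at 667 FPKM. These 3 did not overlap with each other over the 8 libraries, but their order depends on the length used. With GENCODE M21 exon bases as the length, an alternative chosen after seeing the data, Vamp2 was at 451 FPKM, Snap25 at 448 FPKM and Cplx1 at 427 FPKM, with overlapping ranges, and Syp was below them at 318 FPKM. By the deposited lengths, the ranges over libraries overlapped in 25 of the 38 neighbouring pairs of the whole list. Neighbours that overlapped included Slc17a7 (435 FPKM), Cplx1 (426 FPKM), Syt1 (409.7 FPKM) and Sncb (387 FPKM). At the low end were Syt2 at 10.3 FPKM, Sv2c at 9.81 FPKM, Syt3 at 8.96 FPKM, Rims2 at 8.83 FPKM, Unc13b at 1.86 FPKM and Syn3 at 0.827 FPKM.

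Relatives of 1 family differed widely in level per length. Among the 39 genes are 7 synaptotagmins, with Syt1 the fast calcium sensor of the forebrain. Syt1 made up 49.8% ± 1.55 of their summed FPKM in ketogenic and 50.03% ± 0.34 in control libraries (SD, n = 4 each). Syt11, which binds no calcium, made up 25.8% ± 1.14 in ketogenic and 26.6% ± 0.43 in control libraries. Synaptotagmins outside the 39, such as Syt13 at 66.0 FPKM and Syt16 at 19.8 FPKM, are not in that sum. Rab3a, the main vesicle Rab of the brain, held 78.9% ± 0.82 of the summed FPKM of Rab3a, Rab3b and Rab3c in ketogenic and 77.8% ± 0.96 in control libraries. Rab3d, outside the 39, was at 2.11 FPKM and is not in that sum. Unc13a, the main Munc13 priming factor of the forebrain, held 94.95% ± 0.19 of the summed FPKM of Unc13a and Unc13b in ketogenic and 95.1% ± 0.18 in control libraries. Unc13c, a Munc13 gene outside the 39, is not in that sum and was at 9.79 FPKM, against 1.86 FPKM for Unc13b. These shares too depend on the gene length used. The length implied for Syn3 was 72060 bases, against 12282 exon bases in GENCODE M21, and for 5 others (Syt3, Syt4, Syt7, Rims1 and Rims2) it was more than 1.5 times the exon bases. For 10 genes (Vamp1, Snap25, Nsf, Syp, Snap91, Slc17a7, Vamp2, Napb, Syt1 and Unc13a) the exon bases were more than 1.5 times the implied length. The ratio of a gene between libraries is not touched by its length.

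**Figure D1:**
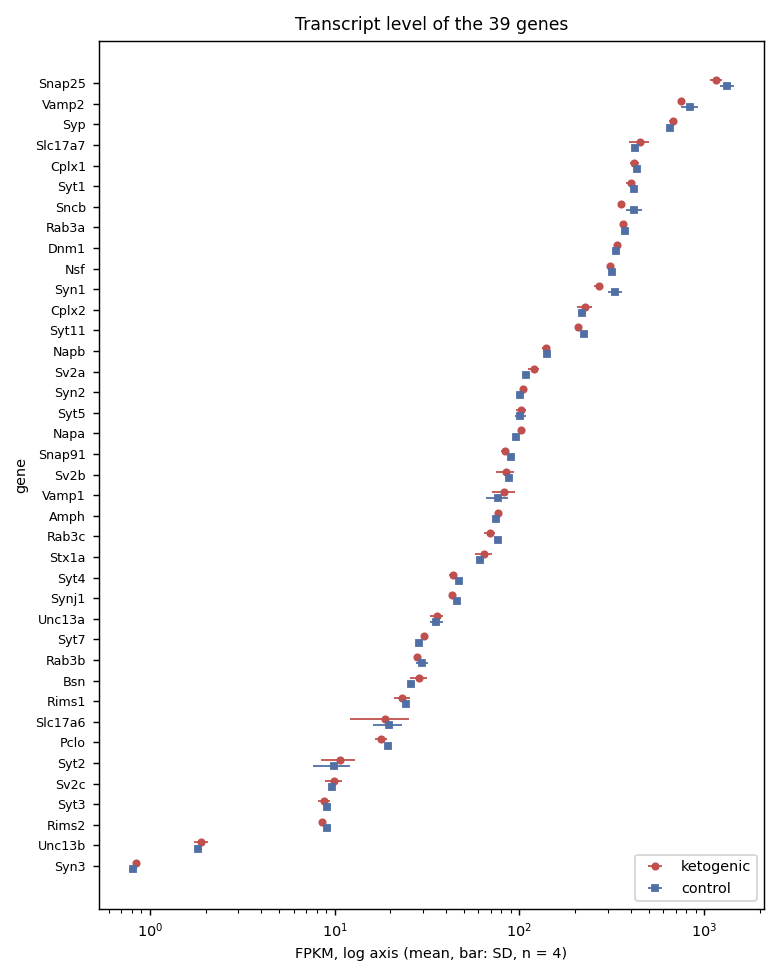
Mean FPKM of the 39 genes (x axis, log scale) by gene (y axis) in ketogenic libraries (circles) and control libraries (squares), with bars for the SD over 4 libraries each. By the deposited lengths Snap25, Vamp2 and Syp lead and Unc13b and Syn3 are lowest, and the groups lie close together for most genes.

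Between the diets, 2 of the 39 genes were lower in ketogenic libraries, Syn1 and Sncb, 0 were higher and 37 did not pass. The test was edgeR's quasi-likelihood F test, its p-values were adjusted over all 14895 genes by the Benjamini-Hochberg method, and genes under 0.05 passed. Of all tested genes 3.22% were lower by that rule, 3.3% higher and 6.52% either, so that the members' share of 5.13% was near the background. At an unadjusted p under 0.05 there were 10 members (25.6%), 9 of them lower and 1 higher, beside 24.6% of all tested genes, of which 1864 were lower and 1795 higher. The ketogenic and control CPM values did not overlap for 3 members, Rab3c, Syt4 and Syt11, all lower in ketogenic libraries, and for 6.51% of all tested genes in that direction. They did not overlap in the higher direction for 0 members and 7.22% of all tested genes (13.7% in either direction). The median log2 fold change, ketogenic over control, was -0.03 over the 39 members and -0.0029 over all tested genes. The median size of the change without its sign was 0.07 in log2 for the members and 0.13 for all tested genes. In a bulk brain sample, fewer cells of a type and less RNA per cell cannot be told apart.

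For the 37 members that did not pass, the data also give how large a difference remained possible. The 95% interval of the fold change lay within 1.25-fold in either direction for 34 of the 37, and the exceptions were Snap25, Syt2 and Slc17a6. It lay within 1.5-fold for all 37. Libraries of 1 group agreed more closely for these genes than in general, with a median coefficient of variation within groups of 5.73% for the members and 8.80% for all tested genes. This was not particular to the members: the 79 other vesicle genes described below had 5.64%. The members also had a higher median level, 86.2 FPKM against 5.97 FPKM over all tested genes, and the part of level in the agreement was not tested.

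**Figure D2:**
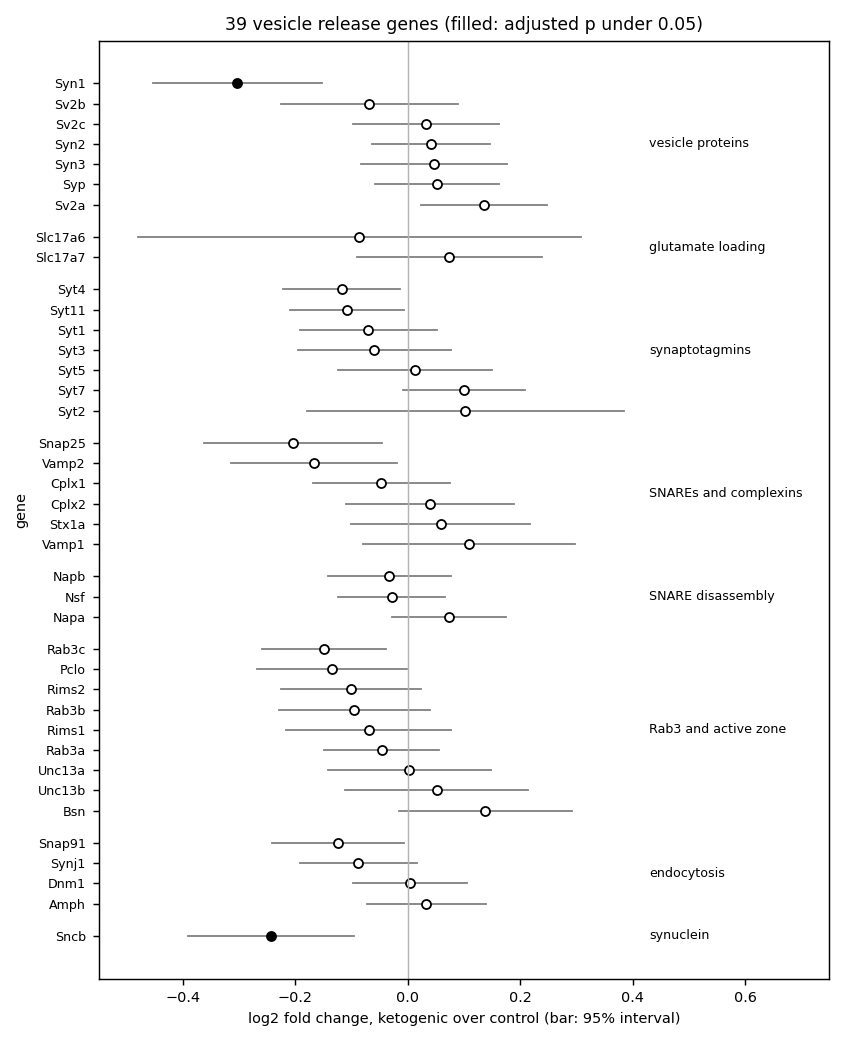
Log2 fold change of each of the 39 genes, ketogenic over control (x axis), by gene and role (y axis), with bars for 95% intervals, and filled points for an adjusted p under 0.05. Syn1 and Sncb are filled and lie left of 0, and the other 37 lie between -0.20 and 0.14.

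Syn1 was the member with the smallest p. Syn1 had 895, 802, 943 and 814 CPM in ketogenic replicates 1 to 4, against 1200.3, 1039, 1079.8 and 942 CPM in control replicates 1 to 4. The 4 ketogenic values were all below those of control replicates 1 to 3, and ketogenic replicate 3 was level with control replicate 4. The means were 863 ± 67.0 CPM in ketogenic and 1065 ± 107 CPM in control libraries (SD, n = 4 each), a log2 fold change of -0.30 ± 0.07 (SE, edgeR adjusted p = 0.0248), or 1.23-fold lower, with a 95% interval of -0.45 to -0.15 in log2. In FPKM, which scales to the column total alone, the ketogenic libraries ran from 254 to 286. The control libraries ran from 296 to 369 in FPKM, without overlap, unlike in CPM. For FPKM the share of all tested genes without overlap was not counted. The call was lost without ketogenic replicate 2 or 4 or without any of control replicates 1 to 3 (adjusted p from 0.0511 to 0.0879), and was kept in each of the other 12 alternatives. Exon bases shared with the opposite-strand gene Araf numbered 9, of 3299 in Syn1.

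The other synapsin genes did not pass. Syn2, synapsin II, averaged 602 ± 26.6 CPM in ketogenic and 585 ± 12.4 CPM in control libraries (SD, n = 4 each), with a log2 fold change of 0.04 ± 0.05 (SE). Syn3, synapsin III, had a log2 fold change of 0.05 ± 0.06 (SE), and 1733 of its 12282 exon bases in GENCODE are shared with Timp3 on the opposite strand, so its reads are uncertain. Syn1 made up 71.7%, 70.8%, 73.1% and 71.7% of summed synapsin FPKM in ketogenic replicates 1 to 4, against 78.4%, 76.2%, 77.0% and 73.6% in control replicates 1 to 4. Every ketogenic library was lower than every control library in this share, which was chosen after the Syn1 values were seen and was not tested.

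Sncb also was lower in ketogenic libraries. Sncb had 535, 497, 548 and 502 CPM in ketogenic replicates 1 to 4, against 703, 603, 625 and 534 CPM in control replicates 1 to 4. Control replicate 4 lay within the ketogenic range and the other control libraries above it. The means were 520.4 ± 24.9 CPM in ketogenic and 616 ± 69.6 CPM in control libraries (SD, n = 4 each), a log2 fold change of -0.24 ± 0.07 (SE, edgeR adjusted p = 0.0486), or 1.18-fold lower, with a 95% interval of -0.39 to -0.09 in log2. The call was close to the threshold: it was lost without ketogenic replicate 1, 2 or 4 or any of control replicates 1 to 3 (adjusted p from 0.0766 to 0.158) and with limma on FPKM (0.0864 with a pseudocount of 1 and 0.0808 with 0.1). Without control replicate 1, the highest library for both genes, the log2 fold change was -0.17 for Sncb and -0.24 for Syn1.

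**Figure D3:**
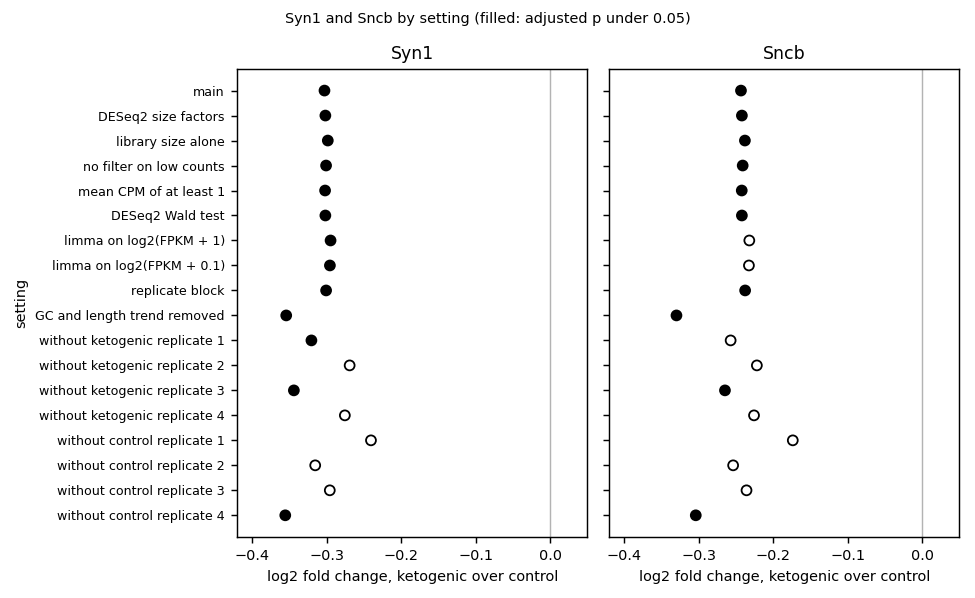
Log2 fold change of Syn1 (left) and Sncb (right), ketogenic over control (x axis), in each setting (y axis), with filled points for an adjusted p under 0.05. All points lie left of 0, Syn1 is filled in 13 of 18 settings including the main one, and Sncb in 10 of 18.

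Of the other vesicle membrane proteins, the SV2 glycoproteins and synaptophysin did not pass. Sv2a had 438, 485, 459 and 487 CPM in ketogenic replicates 1 to 4, against 410.0, 430.4, 413 and 447 CPM in control replicates 1 to 4. Sv2a encodes the SV2 protein that the antiseizure drug levetiracetam binds, and its ketogenic libraries were higher except that ketogenic replicate 1 lay below control replicate 4. Its log2 fold change was 0.14 ± 0.05 (SE, edgeR adjusted p = 0.126), with a 95% interval of 0.02 to 0.25. Sv2b and Sv2c had log2 fold changes of -0.07 ± 0.07 and 0.03 ± 0.06 (SE), and Syp of 0.05 ± 0.05 (SE). The SV2 genes thus had values on either side of 0, none past the threshold.

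Of the 6 SNARE and complexin genes 0 passed. Snap25 had 2846, 2659.7, 3216 and 2594 CPM in ketogenic replicates 1 to 4, against 3544, 3295, 3376 and 2819 CPM in control replicates 1 to 4. Control replicate 4 lay within the ketogenic range, and the other control libraries were above every ketogenic one. The log2 fold change of Snap25 was -0.20 ± 0.07 (SE, edgeR adjusted p = 0.103), and its 95% interval of -0.36 to -0.05 reached furthest below 0 among the 6. It passed without ketogenic replicate 3 (-0.27, adjusted p = 0.0277) and without control replicate 4 (-0.27, adjusted p = 0.0194). After removing a trend on GC content and gene length from each library it was -0.09 (adjusted p = 0.567).

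Vamp2 had 1640.1, 1566, 1702 and 1567 CPM in ketogenic replicates 1 to 4, against 2090.3, 1715, 1865 and 1598 CPM in control replicates 1 to 4. Control replicate 4 lay within the ketogenic range, and control replicate 1 was the highest of all 8. The log2 fold change of Vamp2 was -0.17 ± 0.07 (SE, edgeR adjusted p = 0.151); it was -0.09 without control replicate 1 and -0.22 without control replicate 4, when it passed (adjusted p = 0.0357). Stx1a, syntaxin 1A, which binds SNAP-25 at the plasma membrane, had a log2 fold change of 0.06 ± 0.08 (SE). Cplx1 and Cplx2, the complexins that clamp the assembled complex, had -0.05 ± 0.06 and 0.04 ± 0.07 (SE) in log2. For the complexins and Stx1a the difference was smaller than its SE, and without ketogenic replicate 3 Stx1a was at -0.01 and Cplx2 at -0.04.

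Snap25, Vamp2, Syn1 and Sncb shared a pattern over libraries: in control libraries replicate 1 was highest and replicate 4 lowest for all 4 genes. In the ketogenic group, replicate 3 was the highest for all 4. Among controls, replicate 1 also had the lowest total count (34450860) and replicate 4 the highest (38738800), which lay within the ketogenic range. On the first principal component control replicate 1 lay at 22.7 and control replicate 4, the nearest to the ketogenic libraries, at 5.94. The part of sequencing depth in this pattern was not tested. The library values of these genes were plotted beside those of Rab3c, which did not overlap between the groups, and Sv2a, the member with the smallest p among those with a positive change.

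**Figure D4:**
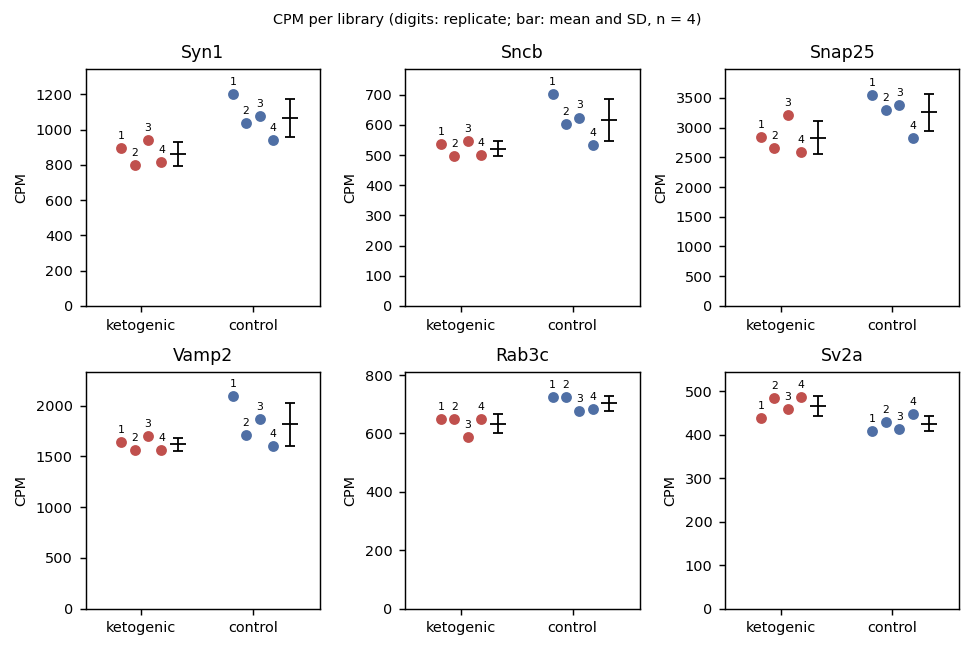
CPM (y axis, from 0) of Syn1, Sncb, Snap25, Vamp2, Rab3c and Sv2a in ketogenic (left) and control (right) libraries, 1 point per library with its replicate number, and a bar for the mean and SD of 4 libraries. Control replicate 1 is highest and control replicate 4 lowest among controls for Syn1, Sncb, Snap25 and Vamp2, and the groups do not overlap for Rab3c.

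Of the 7 synaptotagmin genes 0 passed. Syt4 had 259, 271, 265 and 247 CPM in ketogenic replicates 1 to 4, against 289, 285, 278 and 278 CPM in control replicates 1 to 4. Syt11 had 961, 947, 964 and 948 CPM in ketogenic replicates 1 to 4, against 1081, 1043, 1015 and 981 CPM in control replicates 1 to 4. For these 2 genes, whose proteins do not act as the fast calcium sensors of release, every ketogenic library was below every control library. Syt4 had a log2 fold change of -0.12 ± 0.05 (SE, edgeR adjusted p = 0.153) and Syt11 of -0.11 ± 0.05 (SE, adjusted p = 0.173), or 1.08-fold lower each. After removal of the GC and length trend Syt4 was at 0.01 and Syt11 at -0.11 in log2. The fast sensor Syt1 had a log2 fold change of -0.07 ± 0.06, Syt5 of 0.01 ± 0.06, Syt3 of -0.06 ± 0.06 and Syt7, a slower high-affinity sensor, of 0.10 ± 0.05 (SE), none past the threshold. Without ketogenic replicate 3 Syt5 was at -0.01.

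Of the 9 Rab3 and active zone genes 0 passed. Rab3c had 651, 649, 587 and 649.7 CPM in ketogenic replicates 1 to 4, against 726, 724, 678 and 684 CPM in control replicates 1 to 4. Every ketogenic library was below every control library, with ketogenic replicate 3 the lowest of all. Rab3c, a vesicle Rab, had a log2 fold change of -0.15 ± 0.05 (SE, edgeR adjusted p = 0.0922), -0.11 without ketogenic replicate 3 and -0.04 after removal of the GC and length trend. It passed with the DESeq2 Wald test (-0.15, adjusted p = 0.0387) and in none of the other 16 alternatives. Pclo had 441, 381, 408 and 356 CPM in ketogenic replicates 1 to 4, against 458, 440.3, 417 and 426 CPM in control replicates 1 to 4. Ketogenic replicate 1 was above control replicates 2 to 4 and the other ketogenic libraries below all controls. Pclo, the scaffold Piccolo, had a log2 fold change of -0.13 ± 0.06 (SE, adjusted p = 0.201), and Bsn, its large partner Bassoon, of 0.14 ± 0.07 (SE, adjusted p = 0.259). These partners had values on opposite sides of 0, neither past the threshold. Rims1 and Rims2, which bind Rab3 and recruit calcium channels, had log2 fold changes of -0.07 ± 0.07 and -0.10 ± 0.06, Rab3a of -0.05 ± 0.05, Rab3b of -0.10 ± 0.06, Unc13a of 0.00 ± 0.07 and Unc13b of 0.05 ± 0.08 (SE). Without ketogenic replicate 3 Unc13a was at -0.03. Unc13a shares 495 of 12623 exon bases with Colgalt1 on the opposite strand and Rab3a 29 of 2226 with Mpv17l2.

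Of the 3 SNARE disassembly genes 0 passed. Nsf had 1177, 1146, 1193 and 1157 CPM in ketogenic replicates 1 to 4, against 1179, 1193, 1183 and 1211 CPM in control replicates 1 to 4. Nsf is the ATPase that separates used SNARE complexes, and its group ranges overlapped, with a log2 fold change of -0.03 ± 0.04 (SE, 95% interval -0.12 to 0.07). Napa had 262, 249.97, 264 and 263 CPM in ketogenic replicates 1 to 4, against 245, 256, 242 and 244 CPM in control replicates 1 to 4. Ketogenic replicate 2 lay within the control range and the other ketogenic libraries above it. Napa, the alpha-SNAP adaptor, had a log2 fold change of 0.07 ± 0.05 (SE, edgeR adjusted p = 0.378). Napb had 597, 613, 648 and 564 CPM in ketogenic replicates 1 to 4, against 624, 619, 627 and 607 CPM in control replicates 1 to 4. Napb, the brain form beta-SNAP, overlapped between the groups with a log2 fold change of -0.03 ± 0.05 (SE).

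Of the 4 endocytosis genes 0 passed. Snap91 had 426, 376, 403 and 381 CPM in ketogenic replicates 1 to 4, against 462, 426, 427 and 412 CPM in control replicates 1 to 4. Snap91, the clathrin adaptor AP180, had a log2 fold change of -0.12 ± 0.06 (SE, edgeR adjusted p = 0.183), with ketogenic replicate 1 inside the control range and the other ketogenic libraries below it. Synj1 had 533, 499, 516 and 482 CPM in ketogenic replicates 1 to 4, against 529.7, 535, 547 and 547 CPM in control replicates 1 to 4. Synj1, the phosphatase synaptojanin that sheds the clathrin coat, had a log2 fold change of -0.09 ± 0.05 (SE, adjusted p = 0.286), with ketogenic replicate 1 again inside the control range. Dnm1, the neuronal dynamin, had 0.00 ± 0.05 and Amph, its partner amphiphysin, 0.03 ± 0.05 (SE) in log2, so that neither differed by more than its error. Without ketogenic replicate 3 Dnm1 was at -0.01.

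The vesicular glutamate transporter genes did not pass, and Slc17a6 had the widest interval of all 39. Slc17a6 had 81.6, 94.0, 45.4 and 112 CPM in ketogenic replicates 1 to 4, against 73.5, 100.3, 76.8 and 102 CPM in control replicates 1 to 4. Slc17a6 (VGLUT2) is used mostly by thalamic, hypothalamic and brainstem neurons, and ketogenic replicate 3 was below the other 7 libraries. Slc17a7 had 1331, 1271, 1560.3 and 1096 CPM in ketogenic replicates 1 to 4, against 1245, 1259, 1254 and 1237 CPM in control replicates 1 to 4. Slc17a7 (VGLUT1) is used mostly by neurons of cortex, hippocampus and cerebellar granule cells, and ketogenic replicate 3 was the highest and ketogenic replicate 4 the lowest of the 8, while the control libraries lay close together. The log2 fold change was -0.09 ± 0.19 (SE) for Slc17a6 and 0.07 ± 0.08 (SE) for Slc17a7, with edgeR adjusted p of 0.824 and 0.611. Without ketogenic replicate 3 the values were 0.12 and -0.02, so that the sign of each difference turned without that library. Over the 17 alternatives the sign turned in 2 for Slc17a6 and in 1 for Slc17a7.

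Per length, Slc17a7 exceeded Slc17a6 by 24.9, 20.7, 52.5 and 15.0 times in ketogenic replicates 1 to 4, against 25.9, 19.2, 24.9 and 18.4 times in control replicates 1 to 4. Ketogenic replicate 3 thus had the highest ratio and ketogenic replicate 4 the lowest. The summed CPM of 7 thalamus markers was 228 in ketogenic replicate 3, 303 to 355 in the other ketogenic libraries and 329 to 378 in control libraries. The summed CPM of 10 markers of excitatory neurons of cortex and hippocampus was 6228 in ketogenic replicate 3 and 4448 in ketogenic replicate 4, with 4850 and 5429 in the other ketogenic libraries and 4630 to 5523 in control libraries. The part of regional composition in these values was not tested.

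Syt2 and Vamp1, the relatives of Syt1 and Vamp2 that prevail in brainstem and spinal cord, were highest in ketogenic replicate 4. Syt2 had 79.5, 90.3, 96.3 and 124 CPM in ketogenic replicates 1 to 4, against 78.4, 94.8, 73.4 and 116 CPM in control replicates 1 to 4. Vamp1 had 199, 225, 215 and 266 CPM in ketogenic replicates 1 to 4, against 185, 227, 190.3 and 236 CPM in control replicates 1 to 4. In both groups replicate 4 was the highest for either gene. Their log2 fold changes were 0.10 ± 0.13 and 0.11 ± 0.09 (SE, edgeR adjusted p = 0.687 and 0.491), and without ketogenic replicate 4 they were -0.03 and 0.02. Summed CPM of the 4 brainstem markers that could be tested was 25.8 in ketogenic replicate 4, 12.02 to 18.4 in the other ketogenic libraries and 13.9 to 18.2 in control libraries. Much of that sum came from 1 gene, Sncg, which is also among the other vesicle genes described below. Sncg had 14.5 CPM in ketogenic replicate 4, 5.36 to 12.1 CPM in the other ketogenic libraries and 7.45 to 9.79 CPM in control libraries.

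**Figure D5:**
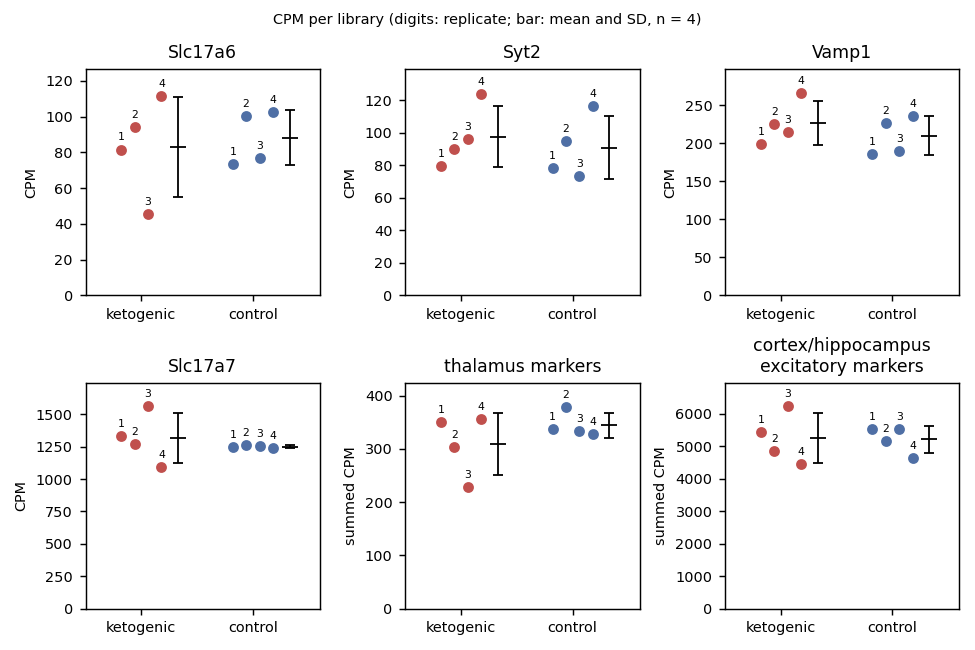
CPM of Slc17a6, Syt2, Vamp1 and Slc17a7, and summed CPM of the thalamus markers and of the cortex and hippocampus excitatory neuron markers (y axes, from 0), in ketogenic (left) and control (right) libraries, 1 point per library with its replicate number and a bar for the mean and SD of 4 libraries. Ketogenic replicate 3 is lowest for Slc17a6 and the thalamus markers and highest for Slc17a7 and the cortex and hippocampus markers.

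Across members, ketogenic replicate 3 was the highest of its group for 23 of the 39 genes and ketogenic replicate 4 the lowest for 21. Among controls, replicate 1 was the highest for 19 genes and replicate 4 the lowest for 17. The 39 genes together held 2.55%, 2.51%, 2.64% and 2.43% of all counts in ketogenic replicates 1 to 4, against 2.72%, 2.65%, 2.63% and 2.55% in control replicates 1 to 4. Ketogenic replicate 3 lay among the controls in this share and the other ketogenic libraries level with or below the lowest control.

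Other genes of the vesicle cycle, a list of 80 made without the 39, showed calls in both directions. The list was chosen with earlier results of these data known, so its share of calls is a description only. Of the 79 in the table all 79 were tested, with 5 higher, 4 lower and 70 that did not pass (11.4% called, against 6.52% of all tested genes, and median log2 fold change 0.02). Higher in ketogenic libraries were Ap2s1, the small subunit of the clathrin adaptor AP-2 (0.35 ± 0.06, SE, edgeR adjusted p = 0.0077), and Ap2a2, a large subunit of AP-2 (0.17 ± 0.05, adjusted p = 0.046). Also higher were the vesicle membrane proteins Svop (0.31 ± 0.07, adjusted p = 0.0173) and Syngr3 (0.18 ± 0.05, adjusted p = 0.0445) and Slc32a1, which loads GABA and glycine (0.22 ± 0.06, adjusted p = 0.0397). Ap2s1 had 97.8, 108, 105 and 101 CPM in ketogenic replicates 1 to 4, against 71.6, 82.4, 83.7 and 84.8 CPM in control replicates 1 to 4. Every ketogenic library exceeded every control library for these 5 genes, which were named because they passed. In that direction the groups did not overlap for 9 of the 79 genes and for 7.22% of all tested genes.

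Lower in ketogenic libraries were Stxbp6, or amisyn, a SNARE-binding protein (-0.33 ± 0.08 in log2, SE, edgeR adjusted p = 0.0261), Syt10 (-0.30 ± 0.08, adjusted p = 0.0365), the scaffold gene Lin7a (-0.24 ± 0.07, adjusted p = 0.0406) and the secretory Rab gene Rab27b (-0.26 ± 0.07, adjusted p = 0.0452). Stxbp6 had 88.3, 87.1, 86.0 and 82.0 CPM in ketogenic replicates 1 to 4, against 125, 109, 107 and 90.0 CPM in control replicates 1 to 4. Ketogenic and control libraries did not overlap for 3 of these 4 genes, and Lin7a was the exception. In the lower direction the groups did not overlap for 5 of the 79 genes and for 6.51% of all tested genes. None of the 9 passed after the GC and length trend was removed, where edgeR adjusted p ran from 0.0527 for Ap2s1 to 0.42 for Rab27b. Their log2 fold changes in that fit kept their signs, from 0.13 (Syngr3) to 0.26 (Svop) for the 5 higher and from -0.26 (Syt10) to -0.11 (Rab27b) for the 4 lower genes, and 312 of all genes passed in it, against 971 without that step. Ap2s1 passed in all 8 fits that left out 1 library, and the others of the 9 passed in 1 to 5 of them. Ap2a2 falls outside the 8 genes that the rule for naming took and was named after its values were seen.

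Markers of neurons were present in all libraries. Of 15 general neuron markers 2 were lower (Nefh and Elavl4), 0 higher, with a median log2 fold change of -0.08. Their summed CPM was 6893 to 7396 in ketogenic and 7028 to 7785 in control libraries, ranges that overlapped. In each group the library with the highest sum, ketogenic replicate 3 and control replicate 1, was also the one with the most Syn1. Of the 10 cortex and hippocampus markers 1 was higher and 1 lower, of the 9 striatum markers 1 was higher and 0 lower, and of 8 tested inhibitory neuron markers, 7 thalamus, 8 cerebellum and 4 brainstem markers 0 passed. Pcp2 and Gabra6, of the 10 cerebellum markers, did not pass the filter on low counts and were not tested.

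Among markers of other cells, 1 of 9 astrocyte markers was higher and 4 lower, and their summed CPM was 4783 to 5424 in ketogenic and 4909 to 5753 in control libraries. Of 9 oligodendrocyte markers 2 were lower and 0 higher (4906 to 6487 CPM in ketogenic, 5304 to 5616 CPM in control libraries). Of 9 microglia markers 1 was higher (386 to 479 CPM in ketogenic, 381 to 423 CPM in control libraries). Of 7 endothelial markers (206 to 237 CPM in ketogenic, 196 to 244 CPM in control libraries) and 6 choroid plexus markers (1060 to 1367 CPM in ketogenic, 587 to 1134 CPM in control libraries) 0 passed. Of 5 blood markers 4 were higher, with 69.4 to 114 CPM in ketogenic and 15.3 to 52.4 CPM in control libraries. No marker present in the table was at 0 in all libraries, and 4 of the 10 brainstem markers could be tested. The part of cell composition in the differences of the 39 genes was not tested.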

How the data were processed

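Messenger RNA of whole brain was measured in 8 libraries, made from 1.3 ug of total RNA with a SMARTer kit, per the labels' protocols. The authors deposited whole-number counts per gene symbol and FPKM values for the same libraries. The deposited FPKM were the count over a fixed length for each gene and over its library's total (largest relative spread of the implied length 1.79e-07), and no library was identical to another. The submitters' processing notes name GRCm38 and mm10 as builds. For the aligner, counter, strand setting and gene models, the tool is not given in the sources used here.

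Counts were fitted with edgeR 4.0.16 (R 4.3.3): its filter on low counts, TMM factors, an intercept and diet, and the quasi-likelihood F test, with Benjamini-Hochberg adjustment over 14895 genes and a threshold of 0.05. SE is the absolute log2 fold change over the root of F. TMM factors also scale the CPM values. Alternatives were DESeq2 1.42.0 size factors and Wald test, library size alone, no filter, a mean CPM of at least 1, limma 3.58.1 on log2(FPKM + 1) and log2(FPKM + 0.1), a replicate block, a loess trend (span 0.3) on GC content and log2 length removed as offsets, and each library left out. A GC value was found for 98.1% of these genes. The fit was tested on simulated data.

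The 39 members, the 80 other vesicle genes and the 13 marker lists were chosen with earlier results of these data known. Members past the threshold and the 2 with the smallest p in each role are named with every library's value. Of the other vesicle genes the 8 with the smallest p are named, 2 of them with every library's value. Outside that rule, Ap2a2 is named with its change, and Syt13, Syt16, Rab3d, Unc13c and Sncg are named for their levels. Syt2, Vamp1 and Nsf were added after their values were seen. Sums of lists were not tested. Coordinates are GENCODE M21 on GRCm38.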

Additional observations from a re-analysis of the deposited data

Results flagged for a closer look

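In 100 groups of 4 libraries (39 members, 9 other vesicle genes, total count and the members' share of counts, in each diet), 6 had 1 library far from the other 3 for its group's range, and chance gives about 1 in 20. The size given is the gap to the nearest library divided by the group's whole range, set against Dixon's 95% critical value. Rab3c was low in ketogenic replicate 3, at 587 CPM against 649 to 651 CPM in the other ketogenic libraries (0.97). Napa was low in ketogenic replicate 2, at 249.97 CPM against 262 to 264 CPM (0.904). In control libraries, Syp was high in replicate 1, at 1687 CPM against 1600 to 1610 CPM (0.883), and Rims2 was low in replicate 4, at 135 CPM against 149 to 151 CPM (0.904). Amph was low in control replicate 3, at 244 CPM against 260 to 262 CPM (0.913). Svop was high in control replicate 4, at 143 CPM against 119 to 121 CPM (0.945). The Rab3c log2 fold change was -0.11 without ketogenic replicate 3.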

How the results depend on the processing

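The number of members higher was 0 in the main fit and in all 17 alternatives. Members lower numbered 2; limma on log2(FPKM + 1) and on log2(FPKM + 0.1) gave 1 each, and leaving out 1 library gave 0 to 4, with 0 without ketogenic replicate 2 or 4 or any of control replicates 1 to 3 and 4 without control replicate 4. Over all fits 5 members passed at least once, Syn1, Sncb, Snap25, Vamp2 and Rab3c, each with a lower value in ketogenic libraries, and 34 never did. The sign of the log2 fold change was constant for 27 members and changed for 12, none of them past the threshold in any fit. Other vesicle genes higher numbered 5, with 8 by the DESeq2 Wald test, 2 by limma with either pseudocount, 0 once the GC and length trend was taken out and 1 to 9 with 1 library left out. Those lower numbered 4, with 7, 0 and 0 by those methods and 0 to 7 with 1 library left out. All genes past the threshold numbered 971, with 1767 by the DESeq2 Wald test, 489 and 560 by limma with pseudocounts of 1 and 0.1, 312 once the GC and length trend was taken out, and 146 (without control replicate 1) to 1900 (without control replicate 4) with 1 library left out. The cause of these shifts was not tested. No scaling moved the median of all genes by over 0.1 in log2.

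With a replicate block 3 members were lower (Snap25 in addition, adjusted p = 0.0283) and 1528 genes passed, but the numbers were not taken to pair libraries: same-numbered libraries correlated by 0.02 to 0.08 in their deviations, and not every library matched its own number best. The lowest count of a member in any library was 1181. With GENCODE exon bases as the length, an alternative chosen after seeing the data, 32 of the 39 mean levels moved by more than 1 SD between libraries.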
